A study of Sus scrofa with 22 samples.

Results

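miR-125a and miR-125b are paralogous microRNAs, short RNAs of the lin-4 family that pair through the bases near their 5′ end (the seed, bases 2 to 8) with sites in messenger RNAs and lower the output of those messages. Vertebrate genomes hold the miR-125 genes next to genes of the let-7 and miR-99/miR-100 families, so that 1 primary transcript can carry all 3. The guide strand is the 5′ arm of the hairpin, and the 3′ arm (miR-125b-3p, for example) is mostly discarded. In mammals the family is known for roles in blood cell development and cell proliferation, and miR-125a and miR-125b have both been studied in adipocyte differentiation. The 2 miRNAs were described here as the sums of all deposited sequences that carry the names miR-125a and miR-125b, which made 2 of 250 mature miRNA names in the tables.

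The libraries are small RNA libraries of subcutaneous fat, 1 for each of 22 female pigs aged 6 months. The labels class the fat of each pig as thick or thin within its breed and give no thickness in millimetres and no treatment. There were 5 Hampshire pigs with thick and 2 with thin fat, 4 Pietrain pigs with thick and 3 with thin fat, and 4 Large White pigs with thick and 4 with thin fat. Each breed has a count table of its own, and the labels do not say whether breeds were prepared or sequenced together, so that breed and table cannot be told apart. In bulk fat, fewer cells of a type and less RNA per cell cannot be told apart either.

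Library totals lay between 431542 and 3137757 reads, and the 2 miRNAs were deeply covered in all of them. miR-125a had 2701 to 46115 reads per library and miR-125b had 3079 to 47596. miR-125a made up 0.827% ± 0.398 of the named reads and ranked 19 of 250 names, and miR-125b made up 1.06% ± 0.281 and ranked 17 (SD, n = 22 libraries). Libraries 1 and 3 of Hampshire thick fat stood apart for miR-125a, miR-99b and miR-125b-3p, and results that rest on them are given with and without them. Library 1 of Large White thick fat and library 1 of Large White thin fat appear exchanged between the labels and the authors' deposited comparison, and which of the 2 groupings is right is not known. The labels were followed. A DESeq2 refit of thick minus thin was correlated with the deposited thin minus thick log2 fold change across 6796 sequences. It gave r = -0.653 under the labels and r = -0.99996 with these 2 libraries exchanged. Values that use Large White fat are therefore also given with the exchange where it turns a direction. The same was done for some values, not all, that it moves by over 1.5 times.

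The 5 most abundant sequences of each miRNA are shown because they hold most of its reads and show how the 2 guide strands differ. They were copied from the deposited tables and run 5′ to 3′, with the seed in capitals.
miR-125a, rank 1: uCCCUGAGacccuuuaaccugu
miR-125a, rank 2: uCCCUGAGacccuuuaaccugug
miR-125a, rank 3: uCCCUGAGacccuuuaaccugc
miR-125a, rank 4: uCCCUGAGacccuuuaaccug
miR-125a, rank 5: uCCCUGAGacccuuuaaccugua
miR-125b, rank 1: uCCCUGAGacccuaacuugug
miR-125b, rank 2: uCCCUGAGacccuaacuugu
miR-125b, rank 3: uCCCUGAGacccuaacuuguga
miR-125b, rank 4: uCCCUGAGacccuaacuugugaa
miR-125b, rank 5: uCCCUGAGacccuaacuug

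Both guide strands began with the same 13 bases and differed in the 3′ part alone. Only these 2 of the 250 names held the seed, which was intact in 99.98% of the reads listed as miR-125a and 99.97% of those listed as miR-125b. No sequence stood under both names or under another name, and even the closest pair of sequences of the 2 miRNAs was 3 base changes apart.

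The reads of miR-125a were concentrated on 1 sequence, and those of miR-125b were spread over several 3′ ends. The 22-nt sequence at rank 1 held 46.7% of all miR-125a reads, with a range of 41.1% to 55.3% over libraries. Its extension by 1 base, at rank 2, held 26.5%, with a range of 18.0% to 31.5%. For miR-125b, the 21-nt sequence at rank 1 held 22.5% of reads, with a range of 19.0% to 28.4%. The 20-nt and 22-nt forms at ranks 2 and 3 held 19.8% and 18.2%. All 10 sequences were listed in every library.

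By reads, most departures from the most abundant sequence lay at the 3′ end in both miRNAs. By number of distinct sequences they did not: 67 of 108 sequences of miR-125a and 100 of 156 of miR-125b had 1 changed base elsewhere, and these held 2.46% and 2.18% of the reads. Reads that extended the most abundant sequence at the 3′ end made up 36.2% of miR-125a and 39.3% of miR-125b. Shorter 3′ ends made up 4.50% of miR-125a and 27.9% of miR-125b. Reads with changed bases at the very 3′ end, some of them shorter than the most abundant sequence, made up 10.1% of miR-125a and 8.11% of miR-125b. In miR-125a the form at rank 3 alone held 6.93%. A shifted 5′ start, which would move the seed, was at most 0.0316% of either. Of all sequences, 15 of miR-125a and 18 of miR-125b were listed in every library and held 96.8% and 96.3% of the reads.

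Levels were compared in CPM, counts scaled to a common library size of 1000000 reads, with library sizes set by TMM scaling, a correction for a few very abundant miRNAs. These are sequencing levels per miRNA and depend on how well each sequence is ligated, so that the ratio of the 2 miRNAs was compared between libraries and not read as a ratio of molecules.

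miR-125a varied 4.72-fold between its lowest and highest library and 3.08-fold without libraries 1 and 3 of Hampshire thick fat. In Hampshire thick fat it stood at 14052, 6010, 18945, 4012 and 5299 CPM, and in Hampshire thin fat at 7600 and 5209 CPM. The highest and the lowest of all 22 libraries were both in Hampshire thick fat, and the thin libraries lay inside that range. In Pietrain, thick fat had 9823, 8162, 6627 and 7067 CPM, against 12361, 6150 and 6739 CPM in thin fat. In Large White, thick fat had 7908, 5613, 10379 and 7281 CPM, against 8627, 5390, 7008 and 7135 CPM in thin fat. Thick and thin fat overlapped in all 3 breeds.

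miR-125b varied less, 2.41-fold between its lowest and highest library. In Hampshire thick fat it stood at 11791, 6851, 13300, 7504 and 8484 CPM, and in Hampshire thin fat at 9718 and 8714 CPM. In Pietrain, thick fat had 16538, 11981, 10229 and 9327 CPM, against 13440, 9106 and 11575 CPM in thin fat. In Large White, thick fat had 13387, 10374, 10025 and 10279 CPM, against 9572, 9588, 11094 and 7870 CPM in thin fat. The groups overlapped in each breed, and the highest Large White library was thick 1, which is 1 of the 2 that appear exchanged.

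**Figure D1:**
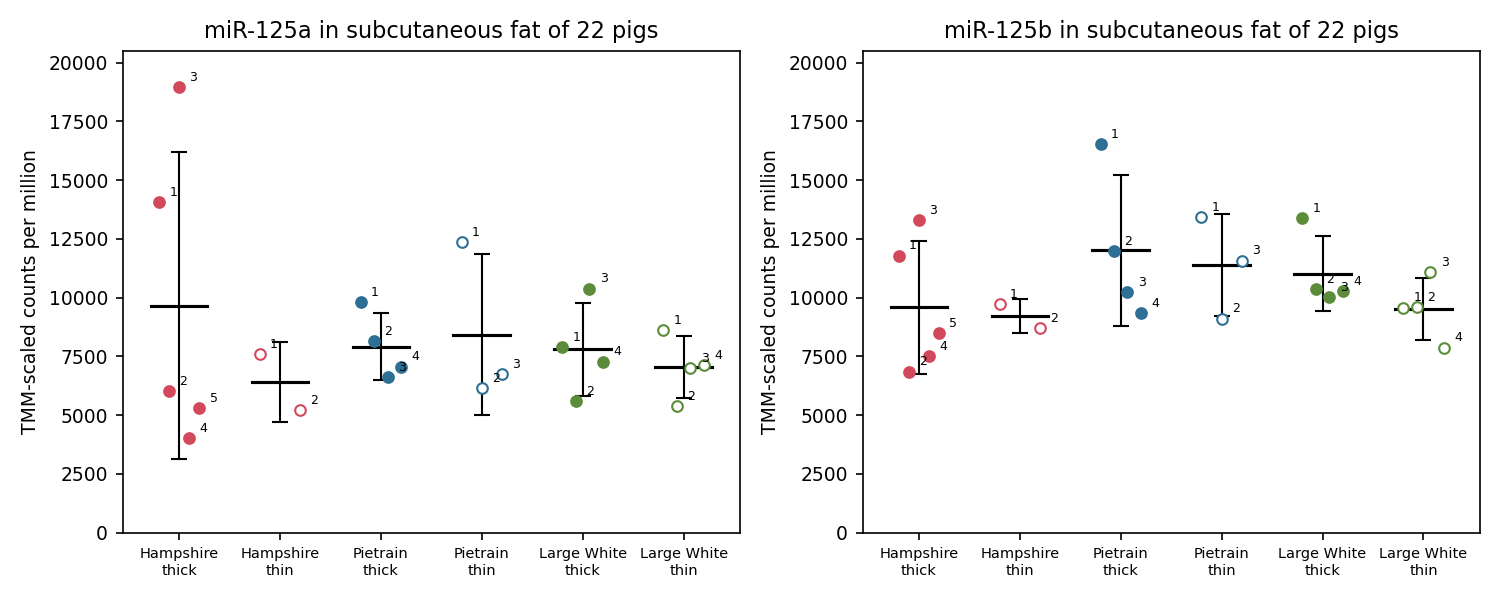
Level of miR-125a (left) and miR-125b (right) in each of the 22 libraries, in TMM-scaled CPM on linear axes from 0; filled points are thick and open points thin fat, numbers are the replicates, the bar is the mean and the whiskers 1 SD. Hampshire thick 1 and 3 lie highest for miR-125a at 14052 and 18945 CPM, and thick and thin fat overlap in each breed.

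By group means, miR-125a ran from 9663 ± 6514 CPM in Hampshire thick fat (n = 5), through 8417 ± 3429 in Pietrain thin (n = 3), 7920 ± 1424 in Pietrain thick (n = 4), 7795 ± 1976 in Large White thick (n = 4) and 7040 ± 1323 in Large White thin (n = 4), to 6404 ± 1690 in Hampshire thin (n = 2; SD throughout). Each neighbouring pair in this order differed by less than 1 SD of either group. For miR-125b the order was 12019 ± 3208 CPM in Pietrain thick, 11373 ± 2174 in Pietrain thin, 11016 ± 1587 in Large White thick, 9586 ± 2814 in Hampshire thick, 9531 ± 1317 in Large White thin and 9216 ± 710 in Hampshire thin, and here too each neighbouring pair differed by less than 1 SD of either group.

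The first question of the study, whether fat thickness goes with miRNA levels, was answered for each miRNA within each breed and over all breeds. Neither miR-125a nor miR-125b was called by edgeR's quasi-likelihood test at an adjusted p of 0.05. In these 4 comparisons 0% of all names tested were called, with 172 names tested in Hampshire, 161 in Pietrain, 170 in Large White and 182 over all breeds. At an unadjusted p under 0.05 edgeR found 5, 4, 2 and 3 names, and after adjustment DESeq2 called 3, 1, 0 and 1 names and limma-voom none, with neither miR-125a nor miR-125b among them.

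The fold changes of the pair were small or wide. In Hampshire, miR-125a had a log2 fold change of thick minus thin of 0.63 ± 0.64 (SE; 95% interval -0.88 to 2.14; adjusted p = 0.959, edgeR), and 2 of 5 thick libraries lay above the thin mean. Those 2 were libraries 1 and 3, and without them the log2 fold change was -0.25, so that the direction rested on them. miR-125b in Hampshire had 0.08 ± 0.30 (adjusted p = 0.961, edgeR), and -0.24 without the same 2 libraries. In Pietrain the log2 fold changes were -0.06 ± 0.29 for miR-125a and 0.11 ± 0.24 for miR-125b (adjusted p = 0.993 for both, edgeR). In Large White they were 0.18 ± 0.22 and 0.26 ± 0.17 (adjusted p = 0.958 for both, edgeR), and all 4 thick libraries had more miR-125b than the thin mean. With the 2 Large White libraries exchanged, the log2 fold change of miR-125b was -0.10. Over all breeds the values were 0.18 ± 0.24 for miR-125a (95% interval -0.32 to 0.69) and 0.12 ± 0.13 for miR-125b (95% interval -0.15 to 0.39), with an adjusted p of 0.996 for both in edgeR. With the exchange, miR-125b over all breeds had 0.019. Without Hampshire thick 1 and 3 these 2 values over all breeds were -0.11 and -0.01. These intervals hold changes in both directions, so that the test does not show equal levels.

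A joint edgeR test for a breed-dependent fat difference called neither miRNA (adjusted p = 0.9995 for both), and it called 0% of 182 names, with 10 at an unadjusted p under 0.05 and 2 called by DESeq2. The authors' deposited table of each breed tests single sequences between fat classes. The authors' deposited tables list 85, 86 and 81 sequences of miR-125a and 87, 138 and 115 of miR-125b in Hampshire, Pietrain and Large White, and 0 of those with an adjusted p were under 0.05 there. An adjusted p is given for all of them in Hampshire and Large White, and for 56 sequences of miR-125a and 91 of miR-125b in Pietrain. Over all sequences with an adjusted p, the authors' deposited tables have 0.0187% under 0.05 in Hampshire, 1.89% in Pietrain and 0% in Large White. For the most abundant miR-125a sequence in Hampshire the authors' deposited table gives a thin minus thick log2 fold change of -0.83 with a standard error of 0.94.

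Between breeds, with thick and thin fat weighted equally, neither miRNA was called either. In Hampshire minus Large White edgeR called 15.4% of 182 names and in Hampshire minus Pietrain 17.6%, whereas Pietrain minus Large White gave 0%, with 14 names at an unadjusted p under 0.05 and 4 called by DESeq2. miR-125b had its lowest median in Hampshire, with 6851, 8714 and 13300 CPM as lowest, median and highest of 7 libraries, against 9106, 11575 and 16538 CPM in 7 Pietrain libraries and 7870, 10152 and 13387 CPM in 8 Large White libraries. The ranges overlapped widely. The log2 fold change of miR-125b was -0.31 ± 0.18 in Hampshire minus Pietrain (95% interval -0.68 to 0.05; adjusted p = 0.254, edgeR), and 2 of 7 Hampshire libraries lay above the Pietrain mean. Its call depended on the fit: it was -0.50 with an adjusted p of 0.0230 without Hampshire thick 1 and 3, and -0.60 with an adjusted p of 0.0351 under upper quartile scaling in edgeR. Upper quartile scaling also moved the median of all names in that comparison, to -0.29 from -0.05 under TMM. Leaving out Hampshire thick 1 and 3 moved that median to -0.16. Of all names, 42 of 180 were called without these 2 libraries and 39 of 182 under upper quartile scaling. It was 32 of 182 in the main fit. Over all alternatives the log2 fold change lay between -0.60 and -0.15 and the adjusted p between 0.0230 and 0.480.

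In Hampshire minus Large White, miR-125b had a log2 fold change of -0.12 ± 0.17 (adjusted p = 0.708, edgeR), and in Pietrain minus Large White 0.19 ± 0.16 (adjusted p = 0.743, edgeR). miR-125a had 0.09 ± 0.30 in Hampshire minus Large White, -0.05 ± 0.31 in Hampshire minus Pietrain and 0.14 ± 0.29 in Pietrain minus Large White (adjusted p = 0.896, 0.935 and 0.9999, edgeR). Its lowest, median and highest libraries were 4012, 6010 and 18945 CPM in Hampshire, 6150, 7067 and 12361 CPM in Pietrain and 5390, 7208 and 10379 CPM in Large White. Hampshire thus had the lowest median and the widest range, and thick 1 and 3 set its upper end. Its other 5 libraries ran from 4012 to 7600 CPM. Without their own 2 highest libraries, Pietrain ran from 6150 to 8162 CPM and Large White from 5390 to 7908 CPM. Without Hampshire thick 1 and 3 the log2 fold change of miR-125a in Hampshire minus Large White was -0.38 (adjusted p = 0.233, edgeR). In Hampshire minus Pietrain it lay between -0.53 and 0.24 over all alternatives tried, and none of them called it.

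**Figure D2:**
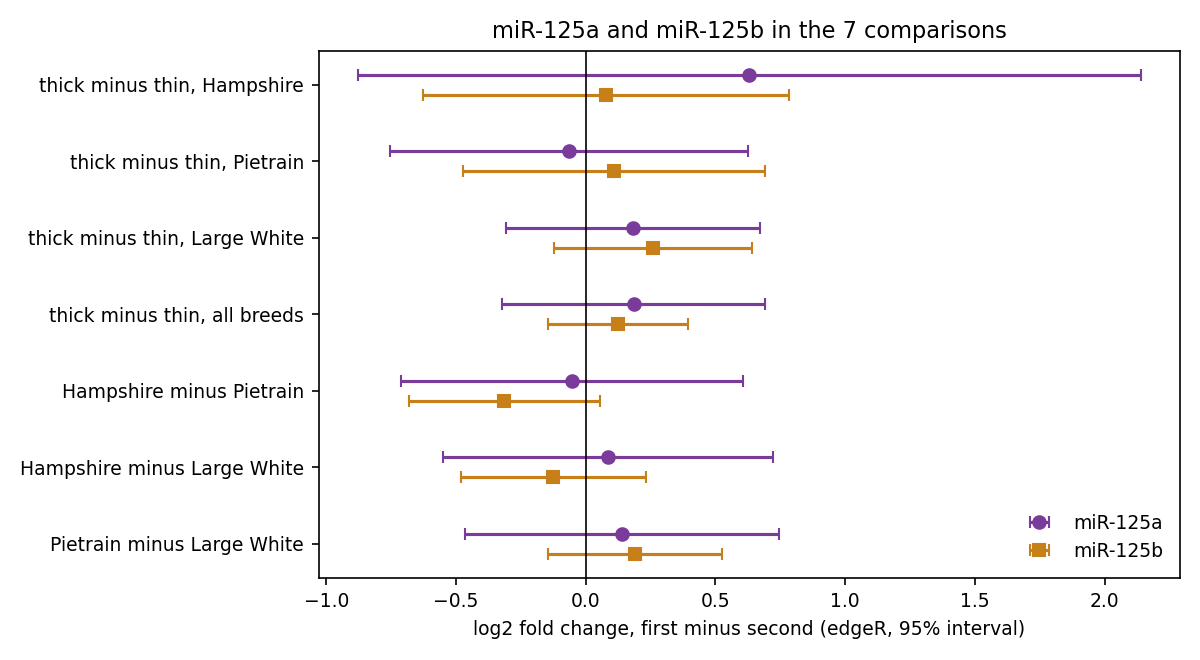
Log2 fold change of miR-125a (circles) and miR-125b (squares) in the 4 fat and 3 breed comparisons, first group minus second, with 95% intervals from edgeR. All 14 intervals include 0, and the widest is that of miR-125a in Hampshire fat, from -0.88 to 2.14.

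miR-125a gave fewer reads than miR-125b in 19 of 22 libraries. The 3 exceptions were Hampshire thick 1 and 3, with 1.19 and 1.42 reads of miR-125a per read of miR-125b, and Large White thick 3, with 1.04. The other Hampshire thick libraries had ratios of 0.877, 0.535 and 0.625, and the thin ones 0.782 and 0.598. The ratio averaged 0.862 ± 0.333 in Hampshire (n = 7), 0.694 ± 0.116 in Pietrain (n = 7) and 0.735 ± 0.188 in Large White (n = 8; SD). In exact permutation tests of the log2 ratio over the same 4 fat and 3 breed comparisons, adjusted with 4 other measures over 35 tests, the adjusted p lay between 0.645 and 0.926. The largest breed difference was 0.24 in Hampshire minus Pietrain, and it was -0.03 without Hampshire thick 1 and 3. Thick minus thin over all breeds was 0.06, and 0.16 with the 2 Large White libraries exchanged. With 5 thick and 2 thin Hampshire libraries the smallest possible p was 0.0952, and with 4 and 3 Pietrain libraries 0.0571, so that no test within these breeds could pass. With 4 and 4 Large White libraries the smallest possible p was 0.0286, which could pass the adjustment over 35 tests only if many of them were as small.

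The hairpin's other strand also set these libraries apart. The most abundant miR-125b-3p sequence, from the 3′ arm opposite the guide, is shown with its own seed in capitals.
miR-125b-3p: aCGGGUUAggcucuugggag
It was chosen after its values were seen. miR-125b-3p stood at 43.8 and 48.9 CPM in Hampshire thick 1 and 3 and at 0 to 10.8 CPM in the other 20 libraries. Per 1000 reads of the guide strand it had 3.71 and 3.68 reads in those 2 libraries. The other 5 Hampshire libraries had 0, 1.08, 0, 1.02 and 0 per 1000, and no Pietrain or Large White library exceeded 0.894. These shares rest on 56 and 119 reads, against at most 31 reads elsewhere, and, since no count from 1 to 5 is listed, a value of 0 may hide up to 5 reads per sequence. edgeR called miR-125b-3p in none of the comparisons that tested it.

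The hairpin neighbours of the family were compared next. In the RefSeq annotation of the Sscrofa11.1 pig assembly, MIR125A lies beside MIR99B and MIRLET7E, and MIR125B-1 beside MIR100 and MIRLET7A-1. let-7c and miR-99a were included because they flank a second miR-125b gene in human and mouse. let-7 miRNAs are known as brakes on proliferation, and miR-99 and miR-100 as regulators of the growth kinase mTOR in human cells. None of the 6 partners was called in any fat comparison. Their median log2 fold change over all breeds was 0.12, against 0.0046 over all 182 names.

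Between breeds, let-7e was called in both Hampshire comparisons, and miR-125a and miR-99b of the same hairpin cluster were not. let-7e had 727, 1484 and 2260 CPM as lowest, median and highest in Hampshire, against 2183, 2638 and 3191 CPM in Pietrain and 2588, 3470 and 3659 CPM in Large White. Hampshire lay below Large White in let-7e, with no overlap (log2 fold change -1.32 ± 0.20, adjusted p = 3.5e-04, edgeR). It also lay below Pietrain, where 1 Hampshire library reached above the lowest Pietrain one (-1.07 ± 0.20, adjusted p = 8.6e-04, edgeR). How many of all names lacked overlap in level was not counted. The 2 other members of that cluster were not called: miR-125a is given above, and miR-99b had log2 fold changes of 0.18 ± 0.14 and 0.18 ± 0.15 (adjusted p = 0.426 and 0.429, edgeR). The difference between let-7e and miR-125a was not itself tested. Without Hampshire thick 1 and 3, miR-125a had -0.38 in Hampshire minus Large White (adjusted p = 0.233, edgeR), the same direction as let-7e.

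Of the 6 partners, 0 were called higher and 1 lower in Hampshire minus Large White, where 8.24% of all names were higher and 7.14% lower. In Hampshire minus Pietrain 1 was higher and 1 lower, where 10.4% of all names were higher and 7.14% lower. The higher one was miR-99a (log2 fold change 0.70 ± 0.16, adjusted p = 0.00403, edgeR), which lost its call under upper quartile scaling (0.42, adjusted p = 0.149) and in thick fat alone (0.32, adjusted p = 0.345). let-7c, let-7a and miR-100 were not called. In Hampshire minus Large White, let-7c (log2 fold change -0.47) and miR-99a (0.44) had an adjusted p of 0.0533 and 0.0649 (edgeR). The partners' median log2 fold change was -0.21 in Hampshire minus Large White and -0.17 in Hampshire minus Pietrain, against -0.03 and -0.05 over all names. The count of called partners in Hampshire minus Large White was 3 under several other settings, given in the closing part.

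Across the 22 libraries the 2 miRNAs moved together. Pearson's r of their log2 CPM was 0.668 (permutation p adjusted over 7 relations = 0.00252) and Spearman's rho 0.683 (adjusted permutation p = 0.00441). Without Hampshire thick 1 and 3, the 2 libraries farthest from the median of miR-125a, r was 0.665. Within breeds it was 0.910 in Hampshire and 0.785 in Pietrain (n = 7 each; exact permutation p = 0.00575 and 0.0355) but 0.097 in Large White (n = 8; exact permutation p = 0.842), so that the relation did not hold within each breed. Over the 5 other Hampshire libraries r was 0.494.

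With its cluster partner miR-99b, miR-125a had r = 0.770 (permutation p adjusted over 7 relations = 3.5e-04) and rho = 0.508 (adjusted permutation p = 0.0606). miR-99b stood at 4570 and 5511 CPM in Hampshire thick 1 and 3 and at 2659 to 4000 CPM elsewhere. Without those 2 libraries r was 0.487, so that much of this relation rested on them. Within breeds r was 0.922 in Hampshire (0.522 over its 5 other libraries), 0.956 in Pietrain and 0.517 in Large White. The other member of that cluster, let-7e, had r = 0.319 with miR-125a (adjusted permutation p = 0.204) and 0.552 without the same 2 libraries, so that the order of miR-99b and let-7e turned on them. Within breeds, r of let-7e with miR-125a was 0.669 in Hampshire, 0.696 in Pietrain and 0.440 in Large White. miR-125b had r = 0.258 with let-7a, 0.372 with let-7c, -0.0776 with miR-99a and 0.385 with miR-100, with adjusted permutation p between 0.162 and 0.732. Without Hampshire thick 1 and 3 these values ran from -0.175 to 0.464. Without Pietrain thick 1 and Hampshire thick 2, the 2 libraries farthest from the median of miR-125b, they were 0.217, 0.228, -0.252 and 0.136. In Hampshire, Pietrain and Large White, r with miR-99a was 0.309, 0.317 and 0.276, all above 0 unlike the pooled value. With let-7c it was 0.161, 0.902 and 0.061, with let-7a 0.039, 0.550 and -0.141, and with miR-100 0.117, 0.446 and 0.668.

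**Figure D3:**
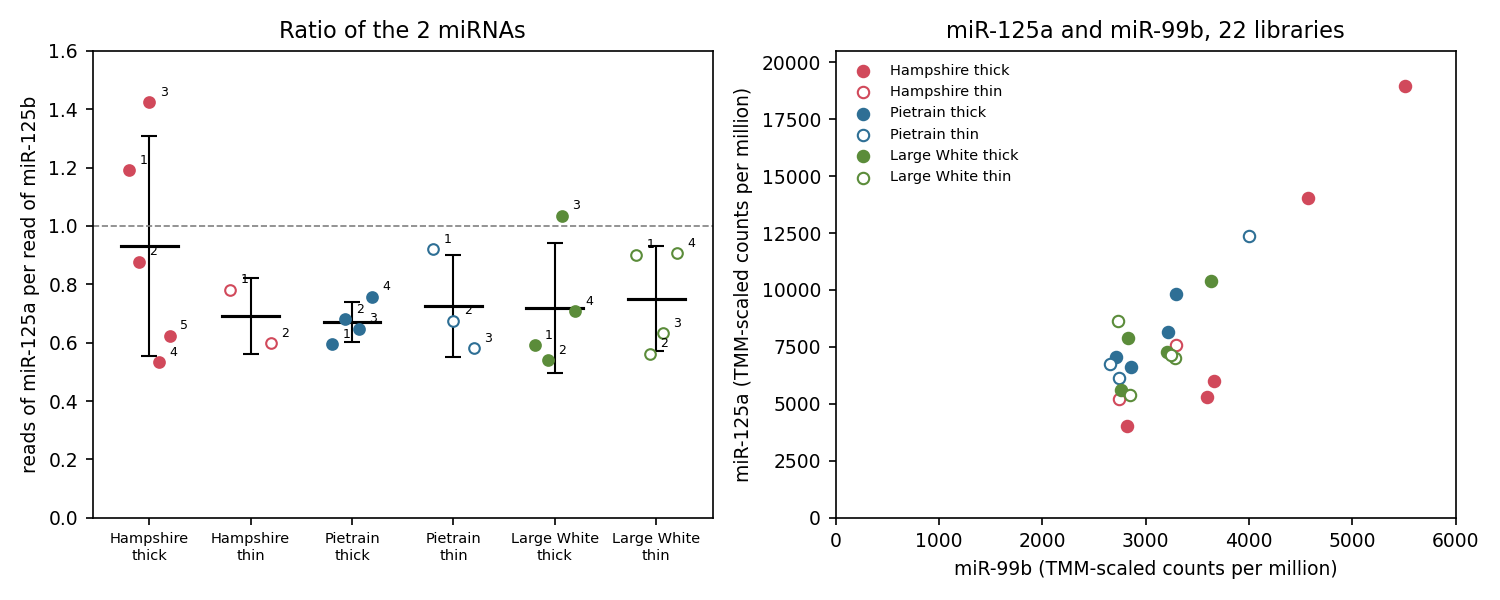
Left: reads of miR-125a per read of miR-125b in each library, filled points for thick and open points for thin fat, with mean and 1 SD; the dashed line marks equal reads, and 3 libraries lie above it. Right: miR-125a against miR-99b in TMM-scaled CPM, 1 point per library; the 2 libraries at the upper right are Hampshire thick 1 and 3.

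Of 108 names with reads in all 22 libraries, including the member itself, the 5 with the pattern most like miR-125a were miR-92a (r = 0.875), miR-1343 (0.843), miR-139-3p (0.837), miR-7134-5p (0.777) and miR-99b (0.770), by Pearson's r of log2 CPM over 22 libraries. The first 4 had r from 0.698 to 0.816 without Hampshire thick 1 and 3. For miR-125b they were miR-7134-5p (0.686), miR-125a (0.668), miR-92a (0.606), miR-28-3p (0.577) and miR-181d-5p (0.558). These values are descriptions, since the libraries share 1 scaling and the names were picked for their rank.

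Read length was called between breeds for miR-125b, whose level was not. miR-125b reads were shorter in Hampshire than in the other breeds. Their mean length was 20.90, 21.01, 20.90, 21.14 and 21.06 nt in Hampshire thick fat and 20.99 and 21.05 nt in Hampshire thin fat, with an average of 21.0 ± 0.0880 nt. In Pietrain the 4 thick libraries had 21.15, 21.19, 21.29 and 21.18 nt and the 3 thin ones 21.32, 21.23 and 21.32 nt, with an average of 21.2 ± 0.0723 nt. In Large White the 4 thick libraries had 21.14, 21.19, 21.25 and 21.15 nt and the 4 thin ones 21.17, 21.23, 21.24 and 21.13 nt, with an average of 21.2 ± 0.0463 nt. All 7 Hampshire libraries lay below all 7 Pietrain libraries, and 1 of them reached into the Large White range.

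The differences were -0.23 nt in Hampshire minus Pietrain and -0.18 nt in Hampshire minus Large White (exact two-sided permutation tests, adjusted p = 0.0109 for both over 35 tests). They were -0.19 and -0.14 nt without Hampshire thick 1 and 3 (adjusted p = 0.0363 for both, exact permutation) and -0.22 and -0.17 nt over the sequences listed in all 22 libraries alone (adjusted p = 0.0218 for both, exact permutation). In thick fat alone they were -0.20 and -0.18 nt, and all 5 Hampshire libraries lay below all 4 Pietrain and all 4 Large White libraries. The gap was narrow: the highest Hampshire library had 21.142 nt, and the lowest had 21.149 nt in Pietrain and 21.144 nt in Large White. How many of all names lacked overlap in thick fat was not counted. The p of 0.0159 was the smallest that 5 against 4 libraries allow, and adjusted over 15 tests it was 0.119 for both (exact permutation). Pietrain minus Large White was 0.05 nt (adjusted p = 0.526, exact permutation). No fat comparison of read length passed. Within Hampshire and Pietrain none could, since the smallest possible p of the exact permutation test was 0.0952 and 0.0571. Within Large White it was 0.0286, which could pass the adjustment over 35 tests only if many of them were as small.

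**Figure D4:**
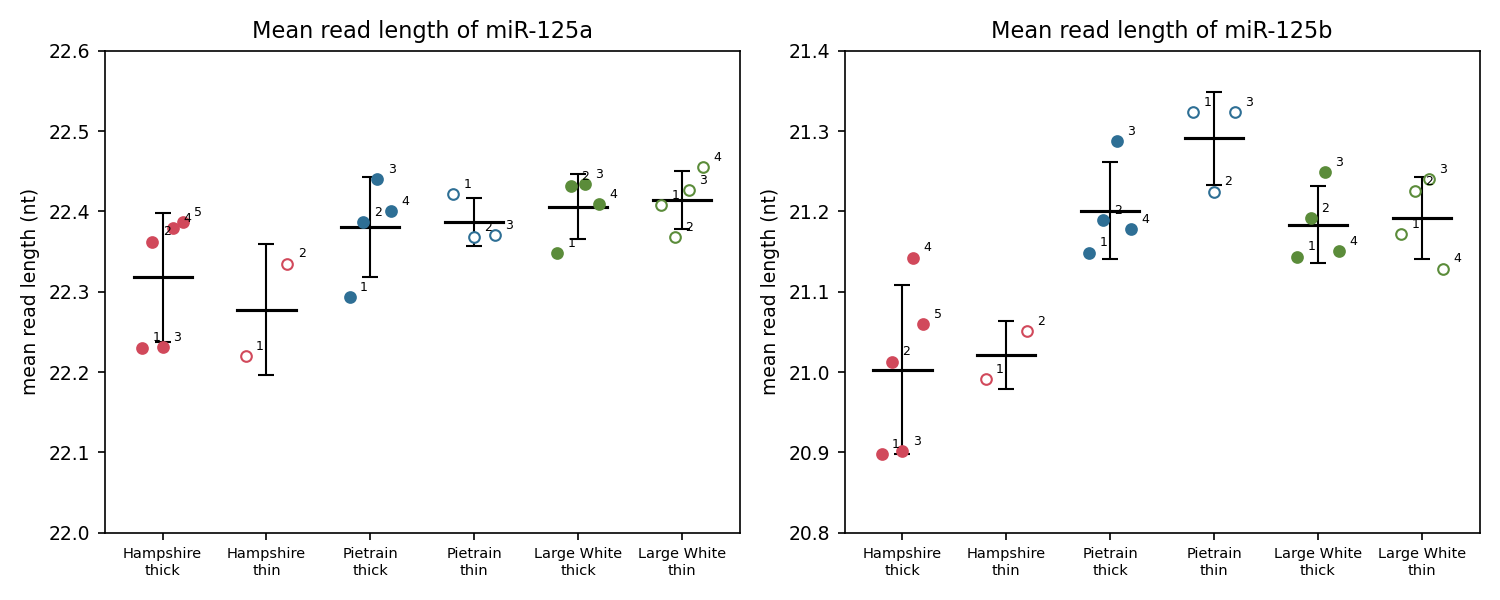
Mean read length of miR-125a (left) and miR-125b (right) in each library, in nt, on axes that do not start at 0; filled points are thick and open points thin fat, numbers are the replicates, with mean and 1 SD. For miR-125b the Hampshire libraries lie between 20.90 and 21.14 nt, below every Pietrain library.

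miR-125a reads differed less. They averaged 22.3 ± 0.0759 nt in Hampshire, 22.4 ± 0.0475 nt in Pietrain and 22.4 ± 0.0358 nt in Large White. Hampshire minus Large White was -0.10 nt (adjusted p = 0.0508, exact permutation over 35 tests), and leaving out 1 library at a time gave an adjusted p between 0.0204 and 0.109. Hampshire minus Pietrain was -0.08 nt (adjusted p = 0.433, exact permutation). Hampshire thick 1 and 3 had the shortest means of their group for both miRNAs, at 22.23 nt each for miR-125a.

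The shift was not particular to the miR-125 family. Of 108 names with reads in all libraries, 48.1% were shorter in Hampshire than in Large White and 42.6% shorter than in Pietrain by the same exact permutation test adjusted over names, and 24.1% and 19.4% were shorter with no overlap. In Pietrain minus Large White 0% were shorter. By this adjustment miR-125b was shorter in both Hampshire comparisons (adjusted p = 0.00224 and 0.00300, exact permutation) and miR-125a in Hampshire minus Large White alone (adjusted p = 0.0104 and, for Pietrain, 0.103, exact permutation). By size of the shortening miR-125b ranked 18 of 108 names against Large White and 11 against Pietrain. The reads of all other names together averaged 21.79 ± 0.06 nt in Hampshire, against 21.88 ± 0.04 nt in Pietrain and 21.87 ± 0.04 nt in Large White (SD). The part of library preparation in the shift was not tested.

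The lengths and end forms behind these means were as follows. Reads of miR-125b that held its whole most abundant sequence and further bases at the 3′ end were 34.5% ± 1.42 in Hampshire, against 41.6% ± 2.69 in Pietrain and 40.2% ± 1.53 in Large White (SD over libraries). All reads over 21 nt, base changes included, were 34.8% ± 1.30 in Hampshire, against 42.6% ± 2.60 in Pietrain and 41.1% ± 1.64 in Large White. The 23-nt reads alone were 9.15% ± 0.707 in Hampshire, 13.7% ± 1.73 in Pietrain and 13.1% ± 1.33 in Large White. The sequence at rank 4 of miR-125b, which ends in a pair of adenines, held 7.37% ± 0.70 of miR-125b reads in Hampshire, 10.8% ± 1.38 in Pietrain and 10.4% ± 1.08 in Large White. Reads with changed bases at the very 3′ end, some of them shorter, had their highest mean in Hampshire, at 9.60% ± 0.345 of miR-125b reads, against 7.17% ± 0.504 in Pietrain and 8.17% ± 0.437 in Large White. For miR-125a the 23-nt reads were 29.0% ± 5.80, 33.9% ± 3.06 and 35.4% ± 2.29 in Hampshire, Pietrain and Large White. These shares were looked at after the mean lengths and were not tested.

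**Figure D5:**
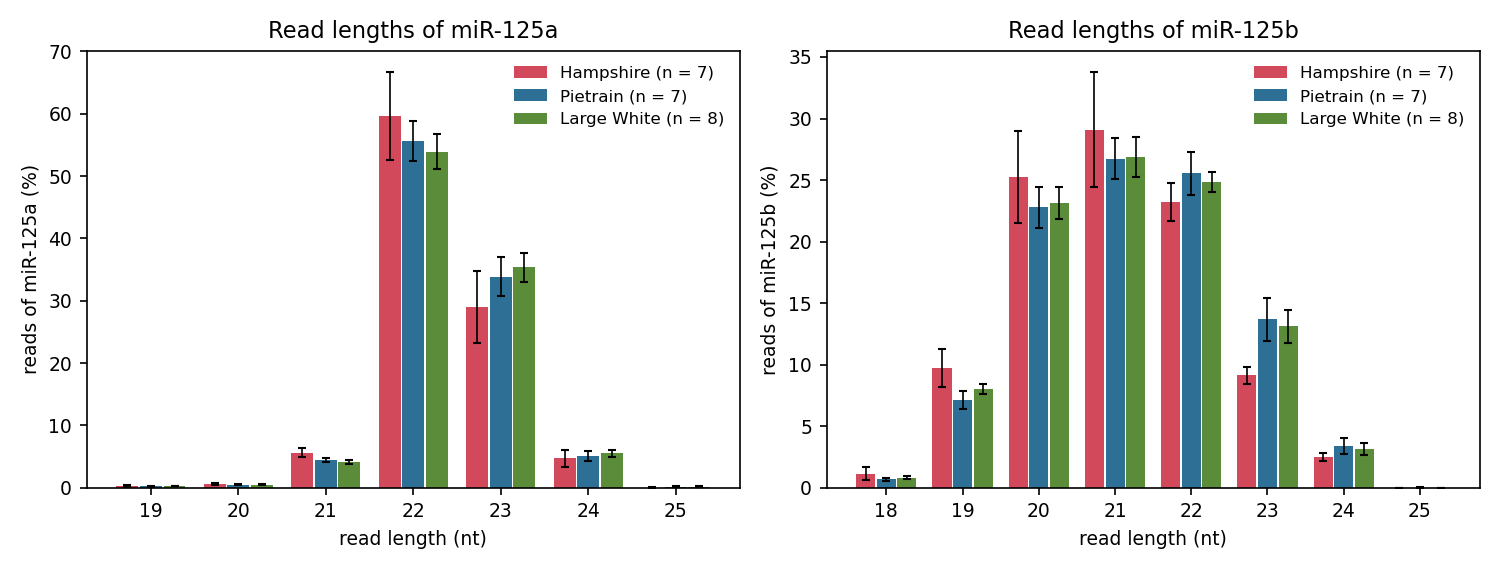
Share of the reads of miR-125a (left) and miR-125b (right) by read length, in percent, as the mean over the libraries of each breed with 1 SD; bars start at 0. At 23 nt Hampshire has the lowest mean of the 3 breeds for both miRNAs, at 29.0% and 9.15%.

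A changed first base, which leaves the seed intact, was rare and had its highest mean in Pietrain. Such reads were 0.150% ± 0.0796 of miR-125b in Hampshire, 0.935% ± 0.197 in Pietrain and 0.264% ± 0.0753 in Large White (SD over libraries). For miR-125a the values were 0.245% ± 0.0816 in Hampshire, 0.853% ± 0.159 in Pietrain and 0.302% ± 0.0658 in Large White. Counted from 1 at the 5′ end, with the base of the most abundant sequence written first, most of the Pietrain excess was U1G. U1G was listed for both miRNAs in all 7 Pietrain libraries, at 0.190% to 0.881% of miR-125b and 0.163% to 0.753% of miR-125a. It was listed in 0 of 7 Hampshire libraries for either miRNA, and in Large White in 0 of 8 libraries for miR-125b and 1 of 8 for miR-125a. In the authors' deposited Pietrain comparison the sequence with the smallest p was a U1G form for each miRNA, and it was lower in thin than in thick fat. Its thin minus thick log2 fold change was -1.56 for miR-125a and -2.40 for miR-125b (adjusted p = 0.201 and 0.144, the authors' deposited test). At an unadjusted p under 0.05 that comparison held 1 sequence of miR-125a and 5 of miR-125b. The U1G change was not particular to the miR-125 family. Over the 124 other names whose most abundant sequence starts with U, U1G reads were 0.00942% ± 0.00242 in Hampshire, 0.476% ± 0.256 in Pietrain and 0.0114% ± 0.00359 in Large White. These shares were looked at after their values were seen and were not tested, and breed and table cannot be told apart here.

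The share of the most abundant sequence did not pass in any of the 7 comparisons for either miRNA (adjusted p from 0.500 to 0.952, exact permutation). As for read length, the fat tests within Hampshire and Pietrain could not pass, and those within Large White only if many p-values were as small. For miR-125b it was 24.8% ± 3.94 in Hampshire, 22.9% ± 1.63 in Pietrain and 22.8% ± 1.53 in Large White. Without Hampshire thick 1 and 3 the difference in Hampshire minus Large White was 4.14 percentage points (adjusted p = 0.0363, exact permutation), against 2.01 points over all libraries.

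The summed levels of marker miRNAs of other cell types overlapped between all 3 breeds and were not tested. The 2 liver miRNAs, miR-122 and miR-192, summed to 20.3 to 28172 CPM in Hampshire, 0 to 7316 CPM in Pietrain and 0 to 3749 CPM in Large White, and both were at 0 in some libraries. Hampshire thick 3 had 22969 CPM of this sum and Hampshire thick 1 had 20.3 CPM, so that the 2 libraries highest in miR-125a differed in it. The 3 red blood cell miRNAs summed to 458 to 1843, 424 to 1115 and 349 to 780 CPM in Hampshire, Pietrain and Large White, and the 5 leukocyte miRNAs to 417 to 1656, 656 to 1226 and 478 to 886 CPM. The 2 endothelial miRNAs summed to 32999 to 88264, 34307 to 48738 and 33476 to 61362 CPM, and 3 smooth muscle and stroma miRNAs to 56617 to 221126, 59840 to 145211 and 57693 to 198102 CPM. Hampshire thick 1 and 3 were low in the smooth muscle and stroma sum, at 67972 and 56617 CPM, ranks 18 and 22 of 22. In that sum miR-145-5p and miR-214-3p were at 0 in some libraries. The same 2 libraries had ranks 22 and 9 in the endothelial sum, 19 and 15 in the leukocyte sum and 4 and 18 in the skeletal muscle sum. The 3 skeletal muscle miRNAs listed summed to 343 to 2336, 246 to 2008 and 268 to 1134 CPM, the 3 of epithelium and skin to 12.9 to 307, 0 to 470 and 8.74 to 72.1 CPM, and the nerve miRNA miR-9 stood at 73.4 to 297, 36.5 to 94.7 and 21.6 to 96.3 CPM, in the same order of breeds. The part of these cell types in the levels or lengths of miR-125a and miR-125b was not tested.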

How the data were processed

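The deposited count tables hold, for each breed, whole-number read counts per sequence and library with no normalization, per the file headers and values. Per the labels' protocols, RNA of integrity above 7.5 went into NEBNext small RNA libraries. Tools in the submitters' processing notes are bcl2fastq, FastQC and DESeq2, with the assembly Sscrofa10.2. For the trimmer, the aligner and all versions the entry is: not given in the sources used here. The authors' deposited comparison of each breed gives each sequence's mean signal, its log2 fold change and standard error, the test's score and both raw and adjusted p-values, per the file headers. Its log2 fold change is thin minus thick, found from the values.

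Counts were summed by mature name after stripping prefixes. Unnamed sequences (0.0480% of reads) stayed out. The smallest count above 0 was 6. Intervals cover counting error and spread between libraries only, and without molecular identifiers, PCR copies count as reads. edgeR 4.0.16 (quasi-likelihood, robust, TMM, Benjamini-Hochberg, threshold 0.05; R 4.3.3) was fitted on all names that passed its count filter and, across breeds, had reads in each table, a restriction added after the tables were seen. CPM are counts scaled to TMM library sizes; correlations used log2(CPM + 1). DESeq2 1.42.0 and limma 3.58.1 (voom) were alternatives. Ratios, shares and lengths were compared by exact permutation tests, whose code was checked against SciPy 1.17.1. Fat classes over all breeds were permuted within breeds. Breed comparisons of these measures used plain means over libraries, permuted without regard to fat class. The edgeR fit alone was run on simulated counts with known changes. Replicate numbers follow accession order and pair nothing; p-values cover only the spread among libraries. The text names the 2 members, the 6 cluster partners and the 5 names most like each member; exceptions are marked. Members and lists were chosen with earlier results of these data known.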

Additional observations from a re-analysis of the deposited data

Results flagged for a closer look

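Of 32 sets of values (8 measures in the 4 groups of 4 or 5 libraries), 1 had a library set far from the rest of its group: miR-125b in library 1 of Large White thick fat, at 13387 CPM, against 10025 to 10374 CPM in the other 3. Chance alone marks about 1 in 20 such sets. This is 1 of the 2 libraries that appear exchanged between the labels and the authors' deposited comparison, and Large White thin 1 had 9572 CPM.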

How the results depend on the processing

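Neither miRNA was called in any fat comparison under any alternative tried, and among breed comparisons the level of miR-125b in Hampshire minus Pietrain alone gained a call. The shorter miR-125b reads of Hampshire kept direction and call in all tests without 1 library and over the sequences listed in all 22 libraries. The direction of uncalled differences turned as follows, and the cause was not tested except where fewer libraries were used. Each library had at least 2701 reads of each of the 2 miRNAs. No paired analysis was possible because the replicate numbers follow accession order and pair no libraries across groups.

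Without Hampshire thick 1 and 3, an alternative chosen after seeing the data, the log2 fold change of miR-125a was -0.25 in Hampshire fat, -0.11 in fat over all breeds and -0.38 in Hampshire minus Large White, and that of miR-125b was -0.24, -0.014 and, in Hampshire minus Pietrain, -0.50 with a call (adjusted p = 0.0230, edgeR). The log2 ratio was then -0.042 in Hampshire fat, -0.071 over all breeds, -0.089 in Hampshire minus Large White and -0.031 in Hampshire minus Pietrain. The share of the most abundant sequence differed by -0.882 points for miR-125a over all breeds, by 0.872 points for miR-125b in Hampshire fat and by 4.14 points for miR-125b in Hampshire minus Large White, now called, and the read length of miR-125b by 0.051 nt in Hampshire fat. With Large White thick 1 and thin 1 exchanged, Large White fat had -0.10 for miR-125b, 0.23 for the log2 ratio, -1.45 points for the share of miR-125a (-0.104 over all breeds) and 0.021 and 0.0060 nt for the read lengths of miR-125a and miR-125b.

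Upper quartile scaling gave 0.043 for miR-125a in Pietrain fat, -0.24 for miR-125a in Hampshire minus Large White, -0.18 for miR-125b in Hampshire fat and -0.60 with a call for miR-125b in Hampshire minus Pietrain (adjusted p = 0.0351, edgeR). Library totals alone gave -0.17 for miR-125a in Hampshire minus Large White, and limma-voom gave -0.0054 there and 0.13 in Pietrain fat. The most abundant sequence alone gave 0.14 for miR-125a in Hampshire minus Pietrain, and for miR-125b -0.22 in Hampshire fat and 0.0042 in Hampshire minus Large White. In thick fat alone miR-125a had 0.24 in Hampshire minus Pietrain, and the share of miR-125b differed by -0.071 points in Pietrain minus Large White. The read length of miR-125b in thick fat alone was not called, at -0.20 nt in Hampshire minus Pietrain and -0.18 nt in Hampshire minus Large White. Hampshire lay below both other breeds by a narrow gap (Hampshire up to 21.142 nt, Pietrain from 21.149 nt, Large White from 21.144 nt). The number of all names without overlap in thick fat was not counted. The exact permutation p of 0.0159 was the smallest that 5 against 4 libraries allow.

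Without 1 library at a time, the log2 fold change of miR-125a ranged from -0.26 to 0.32 in Pietrain fat, -0.089 to 0.21 in Hampshire minus Large White, -0.24 to 0.14 in Hampshire minus Pietrain and -0.052 to 0.26 in Pietrain minus Large White. That of miR-125b ranged from -0.040 to 0.16 in Hampshire fat and -0.14 to 0.24 in Pietrain fat. The log2 ratio ranged from -0.24 to 0.090 in Pietrain fat, -0.27 to 0.044 in Large White fat, -0.0059 to 0.12 over all breeds and -0.13 to 0.018 in Pietrain minus Large White. The share of miR-125a ranged from -5.21 to 4.60 points in Hampshire fat, -0.012 to 2.29 in Pietrain fat, -0.764 to 1.04 in Large White fat and -1.14 to 2.13 over all breeds, and that of miR-125b from -0.12 to 1.25 over all breeds and -0.271 to 0.545 in Pietrain minus Large White. The read length of miR-125a ranged from -0.017 to 0.098 nt in Hampshire fat, -0.027 to 0.022 in Pietrain fat, -0.024 to 0.011 in Large White fat, -0.011 to 0.028 over all breeds and -0.12 to -0.089 in Hampshire minus Large White, where it was called without Large White thick 1, Large White thin 2, Hampshire thick 4 or Hampshire thick 5 (lowest adjusted p = 0.0204, exact permutation). That of miR-125b ranged from -0.053 to 0.012 nt in Hampshire fat and -0.030 to 0.0081 in Large White fat.

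In Hampshire minus Large White, 3 of the 6 partners were called under upper quartile, RLE or library total scaling. Of all 182 names, 33, 36 and 38 were called there. DESeq2 and limma-voom also called 3 partners, with 51 and 29 of 182 names. So did edgeR without a filter and with the most abundant sequence alone, where the calls over all names are not given here. Without Hampshire thick 1 and 3 there were 2 partners, with 40 of 180 names. Without 1 library at a time there were 1 to 4 partners, with 19 to 36 names called. Which partners were added, and in which direction, is not given here. In Hampshire minus Pietrain 4 partners were called with library totals (34 of 182 names) and 1 in thick fat alone (12 names). Without 1 library there were 2 to 4 (26 to 37 names). DESeq2 called 51 names in Hampshire minus Large White, against 28 by edgeR, and thick fat alone gave 9 there and 12, against 32, in Hampshire minus Pietrain. Upper quartile scaling split the calls of Hampshire minus Large White into 7 higher and 26 lower and library totals into 10 and 28, against 15 and 13, and those of Hampshire minus Pietrain into 11 and 28 and into 12 and 22, against 19 and 13.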
